A study of Rattus norvegicus with 2 samples.

Results

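The genes described here are 51 regulators and markers of the rat cell cycle, taken by name from a fixed list and sorted into 3 groups by role. The 3 groups are G1 control with the CDK inhibitors (16 genes), DNA replication (12) and mitosis (23). Of the 51 genes, 45 had at least 1 probe whose RefSeq accession led to their symbol, among 15164 symbols on the array. For 40 of them a probe was well above background on both arrays, among 8231 such genes in all, and these 40 are called measured. The 6 genes without a matched probe were Mki67, Top2a, Cdc25c, Bub1b, Cenpe and Mcm5.

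The study asked how melatonin changes gene expression in rat dental papilla cells on their way to odontoblasts, the cells that form dentin. Primary papilla cells of pups from postnatal day 1 to 3, used at passages 3 to 4, were kept for 3 days in an odontogenic medium (OS). Both groups shared this medium, which held β-glycerophosphate (10 mM), dexamethasone (0.1 mM as labelled), ascorbic acid (0.2 mM) and serum (8%). One group, called OS, had no melatonin (0 nM), and the other, OS+melatonin, had 10 nM. Each group was read on 1 one-colour expression array, 2 arrays in all. There was thus no replicate error between cultures, no test between the groups was possible, and every ratio below compares these arrays and not the conditions. Each title closes with a number whose meaning the labels do not give, so it is unknown whether cultures were pooled for an array.

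The cell cycle runs from G1, in which cyclin D with Cdk4 or Cdk6 and cyclin E with Cdk2 phosphorylate the retinoblastoma protein, to DNA replication, G2 and mitosis. Phosphorylation of the retinoblastoma protein frees E2F factors, which switch on replication genes. The mitotic genes come on later, largely through promoters that the DREAM complex represses in resting cells and that MYBL2 and FOXM1 activate in G2. CDK inhibitors of the Cip/Kip and INK4 families hold cells in G1. In tooth development, papilla cells divide before they leave the cycle and become odontoblasts.

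Promoter sequence differs between these programs, and 5 stretches just before a transcription start are shown because they belong to the mitotic genes with the largest ratios in either direction and to the replication genes with the most E2F matches. They are the last 150 bases before the annotated start in RefSeq assembly GRCr8, read 5′ to 3′ on the gene's strand. Capitals mark a match, on either strand, to the CCAAT box (CCAAT), to the cell cycle homology region of DREAM-bound promoters (CHR, with the letters TTTGAA or with TTCGAA) or to an E2F motif (the letters TTCCCGC, or TTCGCGC, or TTGCCGC, or TTGGCGC). Matches may overlap, so that 1 run of capitals can hold several.

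Kif20a (chr18:26504272-26504421, + strand): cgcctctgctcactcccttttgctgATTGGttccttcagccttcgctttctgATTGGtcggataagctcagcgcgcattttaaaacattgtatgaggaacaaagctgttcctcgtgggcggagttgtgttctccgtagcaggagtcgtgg

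Cdc20 (chr5:137255800-137255949, - strand): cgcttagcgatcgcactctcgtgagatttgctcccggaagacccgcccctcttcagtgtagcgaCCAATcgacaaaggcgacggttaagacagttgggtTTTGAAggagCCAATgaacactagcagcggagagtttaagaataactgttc

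Cdca8 (chr5:142483200-142483349, - strand): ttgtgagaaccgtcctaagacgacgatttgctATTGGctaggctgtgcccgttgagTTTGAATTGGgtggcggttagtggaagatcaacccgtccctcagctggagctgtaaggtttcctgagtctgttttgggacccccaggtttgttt

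Mcm6 (chr13:42404353-42404502, - strand): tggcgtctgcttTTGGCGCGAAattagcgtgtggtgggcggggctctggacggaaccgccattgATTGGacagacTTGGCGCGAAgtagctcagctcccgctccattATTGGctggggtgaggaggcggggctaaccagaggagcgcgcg

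Mcm7 (chr12:22163179-22163328, - strand): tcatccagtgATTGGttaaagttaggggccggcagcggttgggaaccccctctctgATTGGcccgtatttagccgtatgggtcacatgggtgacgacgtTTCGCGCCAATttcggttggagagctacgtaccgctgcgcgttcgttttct

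The stretches of Kif20a, Cdc20 and Cdca8 each held 2 CCAAT matches, and those of Cdc20 and Cdca8 also held 1 CHR match, which in Cdca8 overlaps a CCAAT match on the other strand. None of these 3 held an E2F match. The Mcm6 stretch held 4 E2F matches, in overlapping pairs on opposite strands, and the Mcm7 stretch held 2. These replication stretches also held CCAAT matches, 2 in Mcm6 and 3 in Mcm7, but no CHR match. Among the stretches shown, CCAAT was therefore not particular to the mitotic genes. A match describes letters in the window and does not show that a factor binds there.

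Over the longer window of 250 bases before to 50 after the start, the table held 37 of the 51 genes. In the mitosis group 15 of 18 windows (83.3%) held a CCAAT match, against 37.5% of all 33469 windows, and 11 of the 18 held at least 2. A CHR match lay in 12 of the 18 (66.7%), against 19.7% of all windows, and both motifs in 11 (61.1%), against 7.95%. E2F matches lay in 3 of these 18 windows (16.7%). In the replication group E2F matches lay in 7 of 9 windows (77.8%), against 9.52% of all, and in the G1 group in 4 of 10. CCAAT was found in 6 of the 9 replication windows and in 3 of the 10 G1 windows. CCAAT and CHR matches were thus most frequent in the mitosis group and E2F matches in the replication group. No test was run on these counts, and the sequences are the same whatever the medium.

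Signals are given relative to the 75th percentile of each array, so that 1 is the level of that percentile, and a log2 ratio is OS+melatonin over OS on that scale. Levels of different probes cannot be set against each other. A gene was counted as higher or lower at 1.5-fold. The scanner software gives each spot an error, and combined over both arrays it came to about 0.20 on the log2 scale for bright spots. For the 40 measured members it lay between 10.0% and 16.2% of the signal on the OS array and between 10.0% and 21.6% on the OS+melatonin array. It covers the reading of a spot and not the spread between cultures. For a gene with several measured probes the errors of the probes were combined as for a mean. This made the error of such a gene smaller, 0.15 for Cdkn2b.

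Cell cycle genes stood close to each other on the 2 arrays. Of 40 measured members 1 was at least 1.5-fold higher with melatonin, where 2.03% of all measured genes were, and 0 were at least 1.5-fold lower, where 2.64% were. The median log2 ratio of the members was 0.056, against 0.039 over all measured genes, and 28 of the 40 lay above 0, against 57.6% of all genes. These 28 include the dim genes Cdca8 and Cenpa, which, as described below, could enter the count only with a ratio above 0. Above the median of all genes lay 22 of the 40. At a 2-fold threshold 0 of the 40 were called, where 0.255% of all genes were higher and 0.705% lower. Within 0.32 of 0 on the log2 scale lay 34 of the 40 (85.0%), against 82.0% of all genes. By the error estimate, 2 members were higher by over 2 errors, Kif20a and Cdkn2b, where 5.09% of all genes were, and both calls rest on a probe with 1 spot. By the same measure 0 members were lower, where 4.71% of all genes were. These shares lie near the background, so they show nothing particular to the members. In RNA from whole cultures, fewer dividing cells and less of a transcript per dividing cell cannot be told apart.

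**Figure D1:**
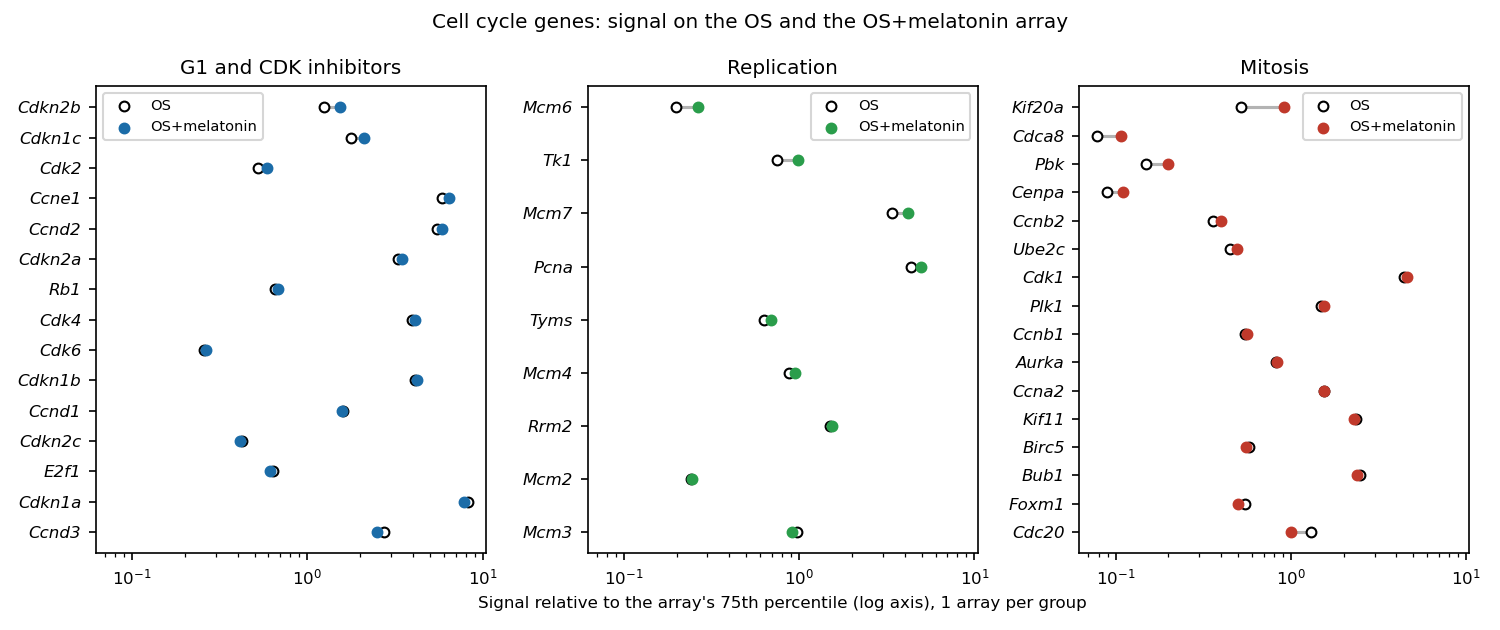
Signal of each measured member on the OS array (open circles) and the OS+melatonin array (filled circles), relative to the array's 75th percentile on a log axis, with 1 array per group and genes ordered by ratio within a group. The circles overlap for most genes, and the widest gap is that of Kif20a, from 0.520 to 0.910.

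G1 control genes differed least. All 15 measured members of this group lay within 0.32 of 0 on the log2 scale, with a median log2 ratio of 0.052 and an SD across genes of 0.12, against an SD of 0.29 over all measured genes. Cyclin D1 (Ccnd1), the partner of Cdk4 and Cdk6 that growth factors induce, read 1.59 on the OS array and 1.57 on the OS+melatonin array, a log2 ratio of -0.012. Ccnd2 read 5.46 and 5.87, and Ccnd3 2.73 and 2.48, so the 3 D-type cyclins did not share a direction. Ccnd3 had the lowest ratio of the group, -0.14, well inside its error of 0.20.

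The kinases showed the same closeness. Cdk4 read 3.96 and 4.10, and Cdk6 0.257 and 0.264. Cyclin E1 (Ccne1), which drives entry into replication with Cdk2, read 5.89 and 6.40. Cdk2 read 0.520 and 0.587 over 10 spots, and 9 of its 10 spots had a ratio above 0 (lowest -0.021, median 0.20, highest 0.33). Its mean of 0.18 exceeded the spot SD of 0.11 but not the error estimate of 0.21, which was not reduced for the number of spots. The standard error over its spots was 0.034, which does not cover the spread between cultures. Cyclin E2 (Ccne2) passed the background flag on the OS array alone. Its processed signal there, 24.5, lay under the lowest signal called well above background on the other array (29.6), so no fold is given.

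The substrate and the transcription factor at the end of this pathway were level as well. Rb1, the retinoblastoma gene, read 0.650 and 0.676, and E2f1 read 0.633 and 0.614. A second E2f1 probe did not pass the background flag on the arrays.

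CDK inhibitors held the largest ratios of the G1 group. Of 6 measured inhibitors 4 lay above 0, where 57.6% of all genes did, and the median of the 6 was 0.053. Cdkn2b (p15), an INK4 inhibitor of Cdk4 and Cdk6 that TGF-β is known to induce, had a log2 ratio of 0.31 from 2 probes that did not give the same value. Its probe with 10 spots stood at 0.096 with a spot SD of 0.25, with 7 spots above 0 and 3 below. Its probe with 1 spot, at a processed signal of 174 on the OS array, stood at 0.53. The 10-spot probe alone would put Cdkn2b inside 2 errors, so its call by that measure rests on the probe with 1 spot. Cdkn1c (p57), a Cip/Kip inhibitor linked to exit from the cycle during differentiation, read 1.77 and 2.10, and its 2 probes both lay above 0, at 0.34 and 0.16.

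Cdkn1a (p21), an inhibitor of cyclin-dependent kinases, went the other way by a little. It read 8.27 and 7.85, and its 2 probes gave -0.093 and -0.057. Cdkn1b (p27) read 4.13 and 4.22 over 9 spots, of which 5 were above 0 and 4 below. Cdkn2a, whose locus encodes p16 and ARF, read 3.29 and 3.47, and the INK4 inhibitor Cdkn2c (p18) 0.426 and 0.414. The inhibitors thus did not move together, and each ratio but that of Cdkn2b was inside 2 error estimates.

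**Figure D2:**
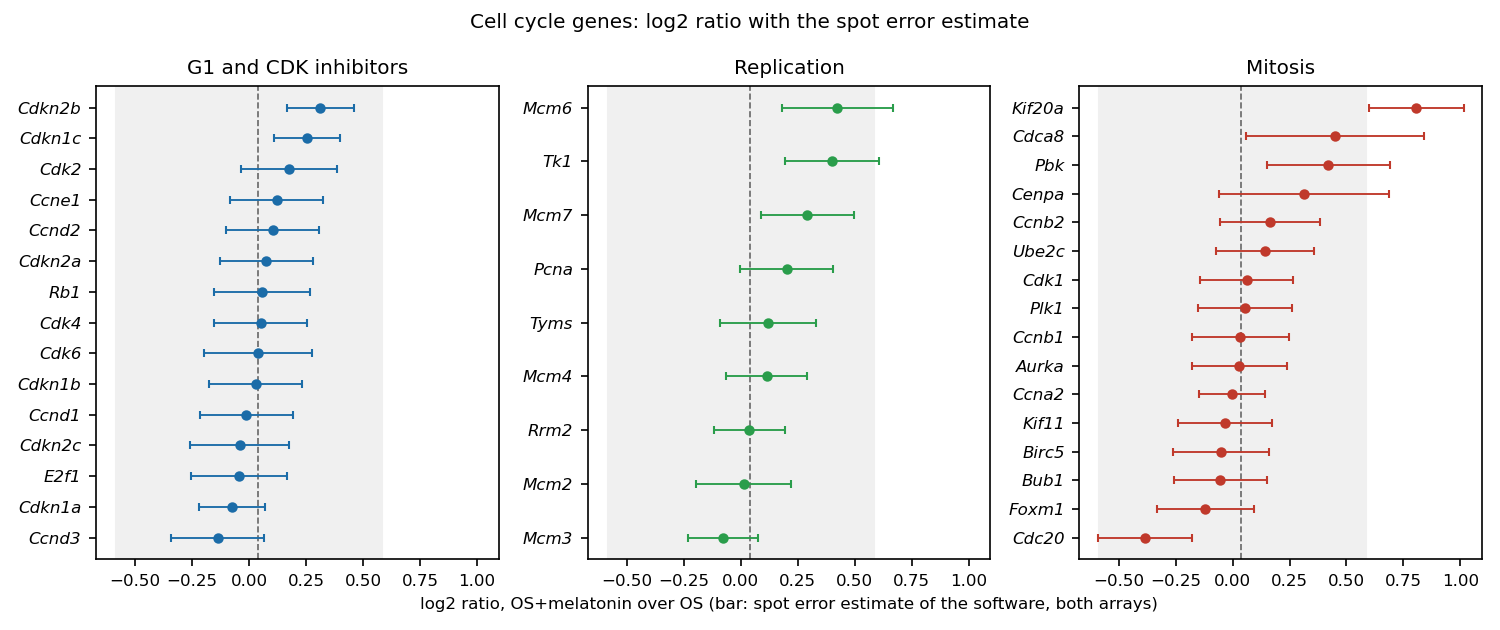
Log2 ratio of OS+melatonin over OS for each measured member, with bars of 1 error estimate from the scanner software; the grey band is 1.5-fold in either direction and the dashed line the median of all measured genes, 0.039. Kif20a alone lies outside the band, and most bars cross the dashed line.

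The replication group had the highest median of the 3 groups. Of 9 measured members 8 lay above 0, where 57.6% of all genes did, and 6 lay above the median of all genes. The 8 include Mcm2 and Mcm4, whose brighter probes lay below 0. The median log2 ratio of the group was 0.12, and 0 passed 1.5-fold. Above a log2 ratio of 0.32 were 2 of the 9, where 10.1% of all genes were. Mcm6, a subunit of the MCM helicase that unwinds DNA at origins, read 0.198 and 0.265, a ratio of 0.42 with an error of 0.24. Mcm7, another subunit, read 3.40 and 4.16, a ratio of 0.29 with an error of 0.20.

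The other measured MCM subunits were closer to level, though the 6 subunits work as 1 ring. Mcm2 stood at 0.012, Mcm3 at -0.078 and Mcm4 at 0.11. Mcm2 and Mcm4 each had 2 probes of opposite sign: 0.078 and -0.054 for Mcm2, and -0.11 and 0.34 for Mcm4. In both genes the value above 0 came from the dimmer probe. Its processed signal on the OS array was 45.1 against 239 for Mcm2, and 56.2 against 2498 for Mcm4. With the brightest probe of each gene both ratios turned below 0. The probes of Mcm3 gave -0.075 and -0.082.

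Genes of nucleotide supply and the replication clamp had ratios at or above 0. Thymidine kinase (Tk1), which salvages thymidine for DNA, read 0.749 and 0.989, a log2 ratio of 0.40 with an error of 0.21. Thymidylate synthase (Tyms) read 0.633 and 0.687. Rrm2, the regulated subunit of ribonucleotide reductase, had a mean ratio of 0.037 from probes at 0.18 and -0.11. Pcna, the sliding clamp of DNA polymerase, read 4.33 and 4.98, a ratio of 0.20 with an error of 0.20. No ratio of the group exceeded 2 error estimates. Rrm1 passed the background flag on neither array. The origin-licensing factor Cdc6 passed it on the OS array alone (processed signals 30.8 and 27.6, relative signals 0.0719 and 0.0838). On the log2 scale its relative signal on the OS array was -3.80. The lowest such value called well above background on the OS+melatonin array was -3.47, so no fold is given.

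The mitosis group spread most, with an SD across its 16 measured genes of 0.28 and a median log2 ratio of 0.044. Its cyclins and Cdk1, which together start mitosis, were level. Cdk1 read 4.40 and 4.60 over 9 spots, with a ratio of 0.063, a spot SD of 0.11, and 5 spots above 0 and 4 below. The 2 probes of cyclin A2 (Ccna2) gave -0.0064 and -0.0025. Cyclin B1 (Ccnb1) read 0.549 and 0.562, and cyclin B2 (Ccnb2) 0.359 and 0.402.

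Kif20a stood apart from the other members. This kinesin carries the chromosomal passenger complex to the central spindle and is needed for cytokinesis. Its 1 probe read 0.520 on the OS array and 0.910 on the OS+melatonin array, 1.75-fold higher, with a log2 ratio of 0.81 and an error of 0.21. The processed signals were 223 and 299, both well above background, but the probe was printed as 1 spot, so its own spread between spots is not known. The median spot SD among probes with at least 8 usable spots was 0.16. Kif20a was 1 of 167 genes past 1.5-fold on the higher side.

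Other spindle and centromere genes gave smaller or opposite values. Kif11, the kinesin that separates the spindle poles, read 2.34 and 2.28 over 10 spots, 7 of them below 0. Cdca8 (borealin) and Birc5 (survivin), which belong to the passenger complex that Kif20a carries, stood at 0.45 and -0.050. Cenpa, the centromeric histone, stood at 0.32. Cdca8 and Cenpa were dim, with errors of 0.39 and 0.37. Their signals on the OS array, 0.0786 and 0.0889, lay below the lowest level called well above background on the OS+melatonin array. A gene with such a signal on both arrays would not have counted as measured, so for these 2 a ratio above 0 was a condition of entering the count. The same held for 109 of all measured genes, and 109 of them had a ratio above 0. Cenpf passed the background flag on the OS array alone (processed signals 28.8 and 26.2, relative signals 0.0673 and 0.0796). No fold is given for Cenpf, for the same reason as for Cdc6. Aurkb, the kinase of the passenger complex, passed the flag on neither array.

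The mitotic kinases and Foxm1 shared no direction, with 3 of 5 measured genes above 0 and a median log2 ratio of 0.030. Plk1 read 1.49 and 1.54, Aurka 0.818 and 0.835, and Bub1, a kinase of the spindle checkpoint, 2.47 and 2.38. A second Bub1 probe was not above background. Pbk read 0.150 and 0.200, a ratio of 0.42 with an error of 0.27. Foxm1, the transcription factor of G2 genes, read 0.544 and 0.501 over 10 spots, of which 8 lay below 0 (lowest -0.47, median -0.091, highest 0.38). Its mean of -0.12 was smaller than the spot SD of 0.25. The standard error over its spots was 0.079, which again leaves out the spread between cultures.

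Cdc20 and Ube2c lie on the way out of mitosis: Cdc20 activates the anaphase-promoting complex (APC/C), a ubiquitin ligase, and Ube2c supplies it with ubiquitin. Cdc20 had the lowest ratio of all 40 members. It read 1.31 and 1.00, 1.31-fold lower, a log2 ratio of -0.39 with an error of 0.21, and it was the single member below -0.32 on that scale, where 7.85% of all genes lay. Ube2c read 0.449 and 0.495, a ratio of 0.14.

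**Figure D3:**
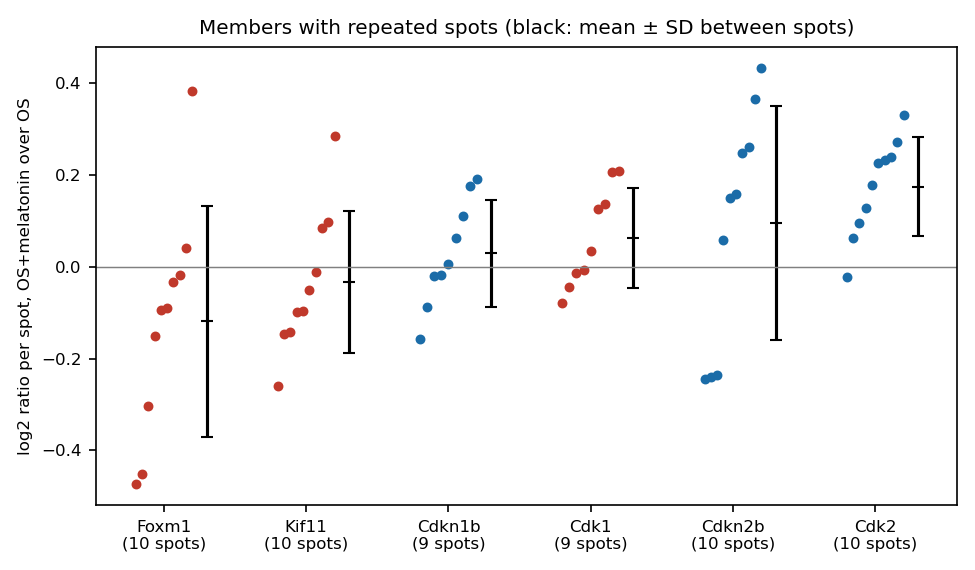
Log2 ratio of every usable spot for the 6 members whose probe was printed 10 times, with the mean and SD between spots in black. The spots of Cdk2 lie above 0 except 1, and those of the other 5 members fall on both sides of 0.

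The members' probes with many spots had ratios near 0. Their 6 mean ratios lay between -0.12 (Foxm1) and 0.18 (Cdk2), with spot SDs of 0.11 to 0.25. Over all 1033 measured probes with at least 8 usable spots the SD of the mean ratios was 0.15, against 0.38 for the 13533 measured probes with 1 spot. The members beyond 0.32 in either direction (Kif20a, Cdca8, Mcm6, Pbk, Tk1 and Cdc20) were each read by 1 spot, as were 27 of the 40. Of the 8 members with several measured probes, 5 had probes of the same sign and 3 did not, while over all measured genes 603 of 1124 agreed in sign.

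Below the lower quartile of mean signal lay 6 members, Cdca8, Cdk6, Cenpa, Mcm2, Mcm6 and Pbk. Their median ratio was 0.37, but Cdca8 and Cenpa could enter only with a ratio above 0. Without these the 4 others had a median of 0.23, made up of Mcm6 and Pbk at 0.42 and of Cdk6 and Mcm2 at 0.038 and 0.012. The measured genes below that quartile, without those that entered under the same condition, were 1949 with a median of 0.018. The other 34 members had a median of 0.053, against 0.040 for all genes above that quartile. With a loess correction of the ratio on mean signal Cdca8 moved to 0.24 and Cenpa to 0.13, while Mcm6 and Pbk kept values between 0.32 and 0.47 in the 9 alternatives that kept them.

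**Figure D4:**
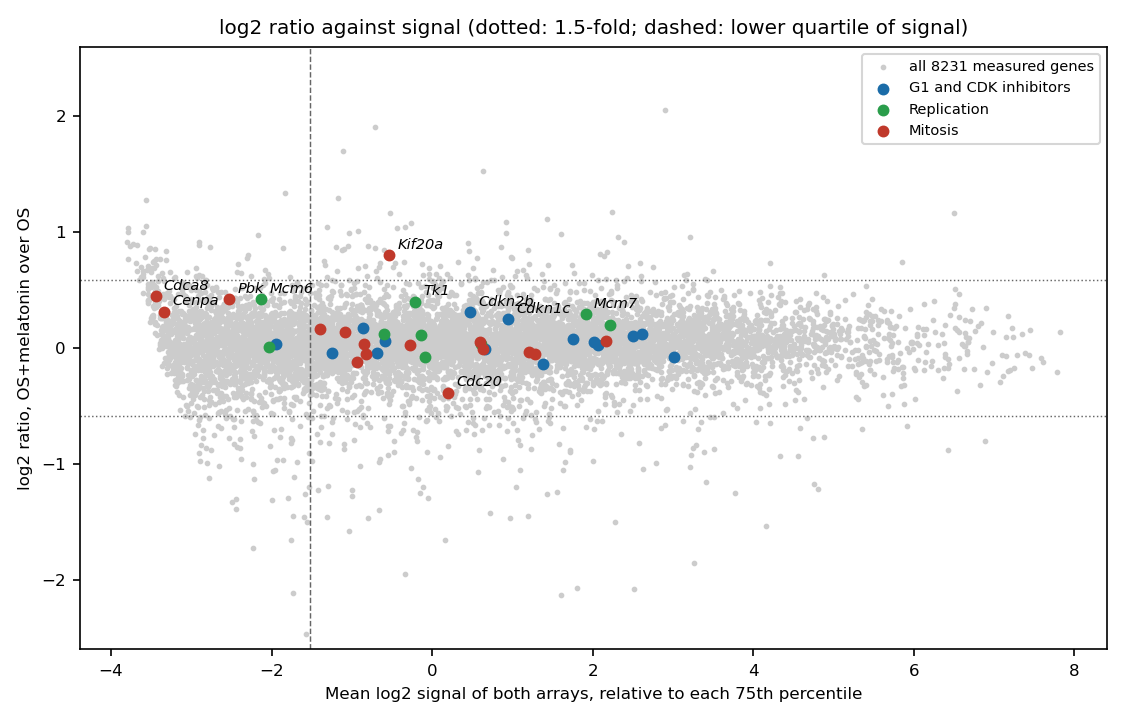
Log2 ratio against the mean log2 signal of both arrays for all 8231 measured genes (grey) and the 40 members by group; dotted lines mark 1.5-fold and the dashed line the lower quartile of signal. The members lie inside the cloud of all genes, Kif20a above the 1.5-fold line and the dim members Cdca8, Cenpa, Pbk and Mcm6 above 0.

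Other genes of the cell cycle, from a list of 139 that holds none of the members, gave a like picture. Of 88 measured, 1 was at least 1.5-fold higher, where 2.03% of all genes were, and 2 at least 1.5-fold lower, where 2.64% were. Above 0 lay 53 of the 88, where 57.6% of all genes did, and their median log2 ratio over the 88 was 0.070. The highest were Cdc16, a subunit of the APC/C, at 1.78-fold (1.03 and 1.83), Rfc4, a subunit of the clamp loader, at a log2 ratio of 0.58, Smc2, a condensin subunit, at 0.57 and Ndc80, which ties microtubules to the kinetochore, at 0.44. Among the lowest were Ccng1, cyclin G1, at 1.86-fold lower (14.2 and 7.63), Kif23 at 1.51-fold lower and Cdc25b, a phosphatase that activates Cdk1, at a log2 ratio of -0.32. Rfc4 lay just under the 1.5-fold line and Kif23 just past it. Kif23 was no longer called with quantile normalization (-0.56), with the authors' processed values (-0.55) or with normexp correction (-0.30), and Cdc16 fell just under the line with normexp (0.58).

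Partners of members went in different directions, and the following sets were put together after their values were seen. Kif23, which with Racgap1 forms the centralspindlin complex at the same central spindle as Kif20a, stood at -0.60, and Racgap1 at -0.25. Of 13 measured subunits of the APC/C, 8 in the list and 5 outside it, 10 lay above 0 and 3 below, with a median of 0.19, where 57.6% of all genes lay above 0. They include Cdc27, which could enter only with a ratio above 0. Kif23, Racgap1, Ccng1 and Cdc25b were each read by 1 spot, and so were the high genes Cdc16, Rfc4, Smc2 and Ndc80. Smc2 was also dim, with a signal of 0.0949 on the OS array and an error of 0.33. Racgap1 was dim as well, with signals of 0.164 and 0.138, and its ratio was smaller than its error of 0.30. Kif23, too, lay below the lower quartile of mean signal, with an error of 0.23.

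The cells carried the marks of dental mesenchyme. All 14 matched markers of mesenchyme and matrix were measured on both arrays, with log2 ratios between -0.21 (Prrx1) and 0.75 (Postn). Of 6 odontoblast markers 1 was measured, Ibsp at -0.18, and 2 passed the background flag on the OS array alone. Dspp and Dmp1 were not measured. Markers of other cell types are given by their ratios and by the sum of their relative signals on the OS and OS+melatonin arrays, a sum in which the brightest probe weighs most. Of 10 skeletal muscle markers 4 were measured, with ratios between -0.71 and -0.085. They summed to 14.9 and 9.88, of which Actc1 alone made 13.6 and 8.97, and the 3 others summed to 1.37 and 0.918. Of 12 macrophage markers 7 were measured, 5 of them below 0 and 2 above (Csf1r at 0.20 and Aif1 at 0.072), with a median ratio of -0.069. These 7 summed to 3.63 and 2.68, and without Lyz2, the lowest at -2.47, to 2.83 and 2.54. Endothelial markers (3 of 9) summed to 1.54 and 1.41. Red cell and lymphocyte markers (2 of 7) summed to 0.572 and 0.255, with Hbb, whose near copies make it uncertain, lowest at -1.73, and of 7 epithelial markers only Tp63 (-0.029) was measured. Above background on the OS array alone were 5 more muscle markers, 2 endothelial, 1 macrophage, 1 epithelial and 0 red cell and lymphocyte markers. Of all probes, 55.2% were well above background on the OS array and 48.4% on the OS+melatonin array. The part of cells of these other types in the cell cycle ratios was not tested.

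**Figure D5:**
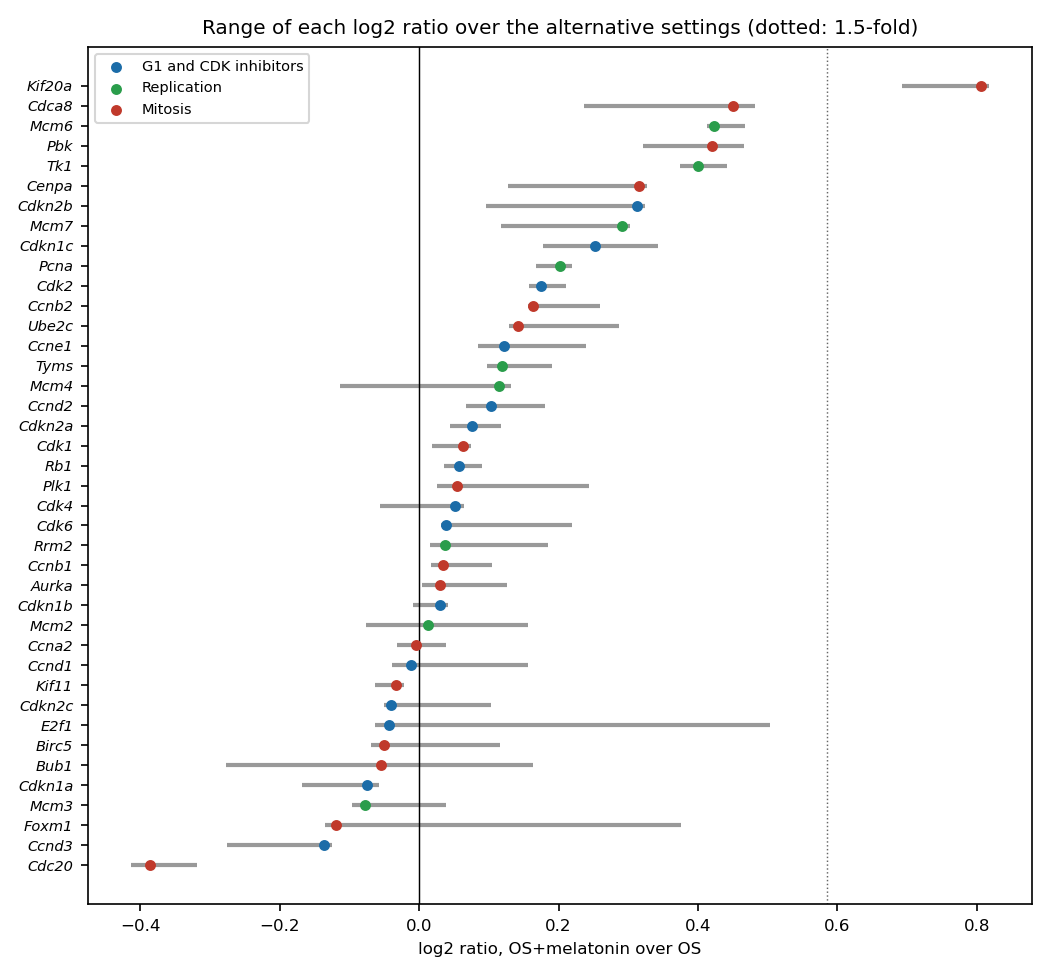
Log2 ratio of each measured member (dots) with its lowest and highest value over the alternative ways of processing (grey bars); the dotted line marks 1.5-fold. The bar of Kif20a stays above the dotted line, from 0.69 to 0.82, and that of Cdc20 below 0, from -0.41 to -0.32.

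The larger ratios kept their sign through the processing. Over up to 10 alternatives 28 of the 40 members kept their sign, 24 above 0 and 4 below (Ccnd3, Cdkn1a, Kif11 and Cdc20). A change of the filter or of the probe chosen cannot alter the ratio of a member with 1 probe. Kif20a, for one, stood at 0.81 in each such alternative, so a kept sign there shows nothing. The 24 include Cdca8 and Cenpa, which could enter only with a ratio above 0. The other 12 members turned in at least 1 alternative, and none of these had a ratio beyond 0.12 in size. The median of the replication group lay between 0.097 and 0.18, but with no filter on dim probes its difference from the median of all genes was -0.043. The direction of that group relative to other genes therefore depends on that filter.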

How the data were processed

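Total RNA was labelled with Cy3, per the labels' protocols, and hybridised to 1 array per group. Per the file headers, spot intensity values were extracted with Agilent Feature Extraction 11.0.1.1 (array design 028282, build rn4), which subtracted background and detrended them. Flags for each spot in the deposited files were taken unchanged. The authors' table of log2 values was deposited without a stated method. It tracked the log2 scanner signal (Pearson correlation 0.9997 and 0.9988 across 30359 probes), both columns had a median of 5.11 over these probes, and how it was centred is unknown.

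Spots flagged as outliers on either array (937 of 42877 outside the controls) were left out. Processed signals were log2-transformed and averaged over the spots of a probe, the 75th percentile over 30359 probes was subtracted per array (signals 428 and 329), and the mean over the measured probes of a gene was taken, a measured probe being well above background on each array. A probe with several spots counted as above background where over 0.5 of them were flagged so. No spot was saturated. Accessions without versions were matched to RefSeq symbols of GRCr8, which named 18000 probes (59.3%). At 1.5-fold 167 of all measured genes were called higher and 217 lower. A loess correction made these 116 and 249, a share of higher calls of 31.8% against 43.5%. The number of arrays limits the precision.

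Members and lists were chosen with earlier results of these data known. All members are named. Of the other cell cycle list the 4 highest and 4 lowest measured ratios were to be named, of which 1 is not reported here, and other genes were chosen after their values were seen. The steps were tested on simulated data made from the OS array, with its background flags on both sides and spot noise of 0.16, the median spot SD. Such data do not cover the detection limit of the OS+melatonin array or errors beyond that noise. Normexp correction used the median spot signal, since the files hold no mean. Calculations used Python 3.11.15, statsmodels 0.14.6 for loess and limma 3.58.1 for normexp.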

Additional observations from a re-analysis of the deposited data

How the results depend on the processing

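With 1 array per group no replicate could be left out. No paired analysis was possible because each group has 1 array and no test was run. A ratio or median was taken as moved when it differed from its reported value by at least the median spot SD of 0.16, and a count when it differed by over 1.5 times. The medians of all members, of each group, of the other list and of all genes kept their sign in 10 of 10 alternatives. Since the median of all genes was above 0 in each, that sign is not particular to the members. The mitosis median lay above that of all genes in 5 of 10 alternatives and the G1 median in 8. Those of the replication group, of all members and of the other list did so in 9 each. Of 394 member ratios 14 moved, a count that includes alternatives unable to change a member with 1 probe. At 2-fold, 21 genes were higher and 58 lower, with 0 members higher and 0 other cell cycle genes higher or lower. At 0.32 on the log2 scale the counts were 835 and 646 for all genes, 5 and 1 for members, and 10 other genes higher. With no filter on dim probes they were 4540 and 731, 2 and 1, and 9 and 6 for the other list. With the laxer flag of a positive, significant spot they were 1145 and 520, 2 members higher, and 6 and 5 for the other list. The negative control spots had a mean log2 ratio of 0.87 after scaling, and counts that include probes at background carry it. Normexp gave 88 genes higher, with 0 other genes higher and 1 lower. The lower-quartile filter gave 101 genes higher and 1 other gene lower. For the other list, quantile normalization gave 1 lower, equal medians 2 higher, and the authors' processed values 2 higher and 1 lower. The median of all genes went from 0.039 to 0.16 with no filter. There the members' median was 0.10, under that of all genes. The cause of the other changes was not tested.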
